A study of Mus musculus with 3 samples.

Results

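CG methylation of mature osteoclasts (mOC) was set against that of the macrophages they were grown from (BMM), over all 69337 regions that the authors listed for this pair of libraries, which is 12.7% of the 547915 regions listed over the series' 3 pairwise tables. Members were chosen as every region of that table. The level of a region is the number of methylated reads divided by all reads, summed over its CG cytosines, and a difference is the mOC level minus the BMM level in percentage points. The mOC were made from marrow of C57BL/6 mice 11 weeks after birth, flushed from femur and tibia: cells floating after 24 h of culture received 50 ng/mL of M-CSF, a macrophage growth factor, over 72 h, and then 30 ng/mL of M-CSF together with 100 ng/mL of RANKL, the cytokine that drives osteoclast formation, for 72 h or more. The BMM are the cells after the first M-CSF step, with no RANKL. Both groups were therefore exposed to M-CSF and came from the same strain, age and tissue. Each had 1 library of whole-genome bisulfite sequencing, which reads methylated cytosines as C and unmethylated ones as T, and whether animals were pooled is not given in the sources used here. No difference has a replicate check, so the conditions cannot be tested against each other, and intervals below are 95% intervals that cover counting error only. These are cultures, and the share of cells that had fused into osteoclasts is not given.

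Osteoclasts are large cells with several nuclei that dissolve bone. RANKL binds its receptor RANK on macrophages and acts through NF-κB, MAP kinases and calcium to raise the transcription factor NFATc1, after which cells fuse, acidify the bone surface and digest its matrix. CG methylation is copied at DNA replication by DNMT1, placed on new sites by other DNMT enzymes and oxidised by TET enzymes. It is usually high in gene bodies and low at CG-rich promoters and active enhancers. Methylation was measured here and expression was not.

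A listed region is a 200 bp bin, or 400 or 600 bp where adjoining bins appear to have been joined. Most of them hold few CG sites, as the promoters below show. These 4, 2 per direction, were selected among the promoter regions described later: in each direction they are those whose listed region covers the most of the 250 bases before the annotated start. Sequences are from RefSeq (GRCm38.p6), 5′ to 3′ on the gene's own strand, and capitals mark the CG dinucleotides that lie inside the listed region. The Fbxw7 window (chr3:84951961-84952210, plus strand) lies before 1 of the annotated starts of this gene, the substrate-recognition subunit of a ubiquitin ligase, and the Dgkh window (chr14:78644452-78644701, minus strand) belongs to a diacylglycerol kinase. Both held a region lower in mOC. The Cldn7 window (chr11:69964529-69964778, plus strand) belongs to a tight-junction protein and the Hivep3 window (chr4:119814428-119814677, plus strand) to a zinc finger protein. Both held a region higher in mOC.
Fbxw7: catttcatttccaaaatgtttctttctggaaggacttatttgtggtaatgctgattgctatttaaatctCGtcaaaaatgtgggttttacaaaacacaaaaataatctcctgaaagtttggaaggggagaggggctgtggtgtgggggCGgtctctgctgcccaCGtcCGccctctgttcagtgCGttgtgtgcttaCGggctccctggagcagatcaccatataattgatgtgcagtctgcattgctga
Dgkh: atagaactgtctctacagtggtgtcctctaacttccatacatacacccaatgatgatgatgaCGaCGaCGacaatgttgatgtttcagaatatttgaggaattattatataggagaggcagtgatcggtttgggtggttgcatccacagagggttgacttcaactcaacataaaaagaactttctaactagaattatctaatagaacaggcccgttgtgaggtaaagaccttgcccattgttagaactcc
Cldn7: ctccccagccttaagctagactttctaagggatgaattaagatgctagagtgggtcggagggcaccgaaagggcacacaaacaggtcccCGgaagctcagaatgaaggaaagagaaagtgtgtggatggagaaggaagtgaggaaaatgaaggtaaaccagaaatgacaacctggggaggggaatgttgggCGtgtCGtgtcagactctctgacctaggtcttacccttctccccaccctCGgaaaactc
Hivep3: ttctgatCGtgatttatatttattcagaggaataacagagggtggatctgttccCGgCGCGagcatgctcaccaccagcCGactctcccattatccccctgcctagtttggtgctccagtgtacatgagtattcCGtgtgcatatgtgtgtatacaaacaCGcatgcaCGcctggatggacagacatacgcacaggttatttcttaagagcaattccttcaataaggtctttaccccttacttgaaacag

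The Fbxw7 window holds 6 CG dinucleotides, all of them in the listed region, which the authors counted as 12 cytosines over both strands. In each of the 45 listed regions that lie whole in a promoter window, the deposited number of cytosines equalled the number of CG letters of the reference on both strands. The Fbxw7 region stood at 59.7% in mOC (47.9 to 70.8, 77 reads) and 96.6% in BMM (88.1 to 99.6, 58 reads). The Hivep3 region, with 8 CG dinucleotides of its 16 cytosines in the window shown, stood at 91.2% in mOC (83.4 to 96.1, 91 reads) and 63.3% in BMM (52.5 to 73.2, 90 reads).

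Losses in mOC outnumbered gains, and the 2 directions began at different levels. Of the listed regions 58.9% were lower in mOC (40837 regions, interval 58.5 to 59.3) and 41.1% were higher (28500 regions). Regions lower in mOC had a median level of 48.0% in mOC (quartiles 26.8 and 63.2) and 78.9% in BMM (58.3 and 91.3). Regions higher in mOC had a median of 70% in mOC (48.7 and 87.2) and 38.5% in BMM (18.5 and 57.9). The sizes were alike, with median differences of -27.5 and 27.5 points. The median depth was 32 and 31 reads in mOC and 36 and 35 reads in BMM for lower and higher regions, or over all regions 5.67 reads per cytosine in mOC and 6.50 in BMM. The median interval of a single difference reached 19.7 points to each side, so a typical region's size is known only roughly.

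**Figure D1:**
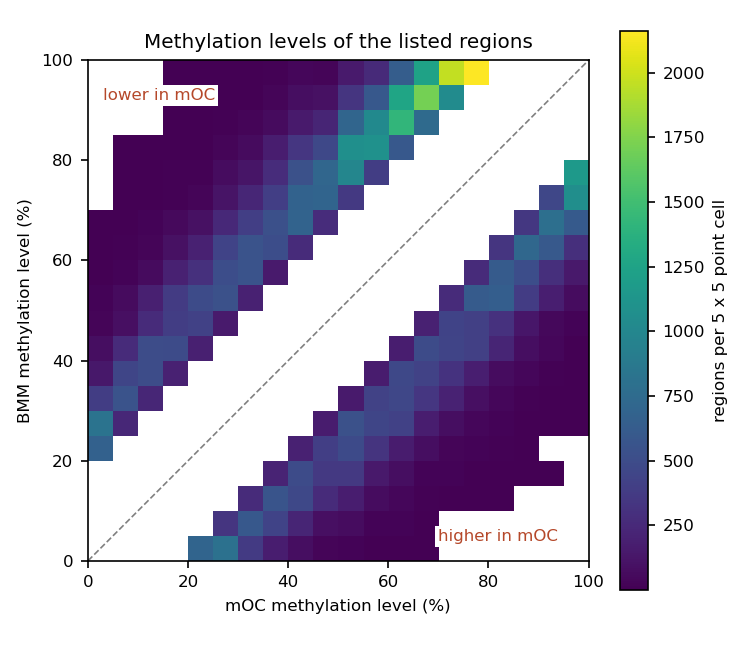
Number of listed regions by methylation level in mOC (x axis, %) and in BMM (y axis, %), in cells of 5 by 5 points; the dashed line marks equal levels. Regions above the line are lower in mOC (40837) and regions below it higher (28500); the empty band is the authors' minimum difference of 20 points, and the fullest cells lie at high BMM levels.

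Nearly all of these shifts were partial. Only 9 regions were under 20% in mOC and over 80% in BMM, and 8 were over 80% in mOC and under 20% in BMM. The commonest loss, in 19592 regions or 28.3% of all, was to between 20 and 80% in mOC at over 80% in BMM. The commonest gain, in 10142 regions or 14.6%, was to over 80% in mOC at between 20 and 80% in BMM. A further 35.3% of regions were between 20 and 80% in both libraries, 13696 of them lower and 10770 higher in mOC. A region near either end of the scale can only move one way, so direction is given next by the average of both levels.

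Direction followed that average. At averages under 20%, 48.6% of 5170 regions were lower in mOC (47.2 to 49.9), at 20 to 40% it was 50.3% of 13166, and at 40 to 60% it was 55.8% of 16236. The share was 64.5% of 23450 regions at 60 to 80% (63.9 to 65.1) and 66.3% of 11315 at 80% and above (65.4 to 67.2). Gains and losses were thus near balance where methylation was low, and losses prevailed where it was high. CG density moved the share less: 57.8% of regions with 4 or 5 cytosines per 200 bp were lower, 59.6% with 6 to 9, 61.8% with 10 to 19 and 60% of the 180 regions with 20 or more (52.4 to 67.2). The wide regions leaned further to loss. Of the 1409 regions of 400 bp, 992 were lower in mOC and 417 higher, and of the 24 regions of 600 bp, 22 were lower and 2 higher.

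Losses were commonest inside genes, and gains and losses were balanced far from them. Genes held 37981 of the regions, and 62.3% of these were lower in mOC (61.8 to 62.8), with median levels of 60% in mOC and 69.4% in BMM. Outside genes 54.8% of 31356 regions were lower (54.2 to 55.3), with 50.0% in mOC and 52.6% in BMM. The share lower in mOC was 58.8% within 5 kb of a gene, 56.3% at 5 to 20 kb, 53.7% at 20 to 50 kb and 50.2% at 50 to 100 kb. It was 48.1% of 2377 regions at 100 to 200 kb (46.1 to 50.1) and 49.6% of 1007 beyond (46.4 to 52.7). Median levels were lower at greater distance, and from 50 kb on they were no higher in BMM than in mOC: 44.0% in mOC and 42.9% in BMM at 50 to 100 kb. Depth per cytosine was between 5.50 and 5.75 reads in mOC and between 6.33 and 7 in BMM over these classes.

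**Figure D2:**
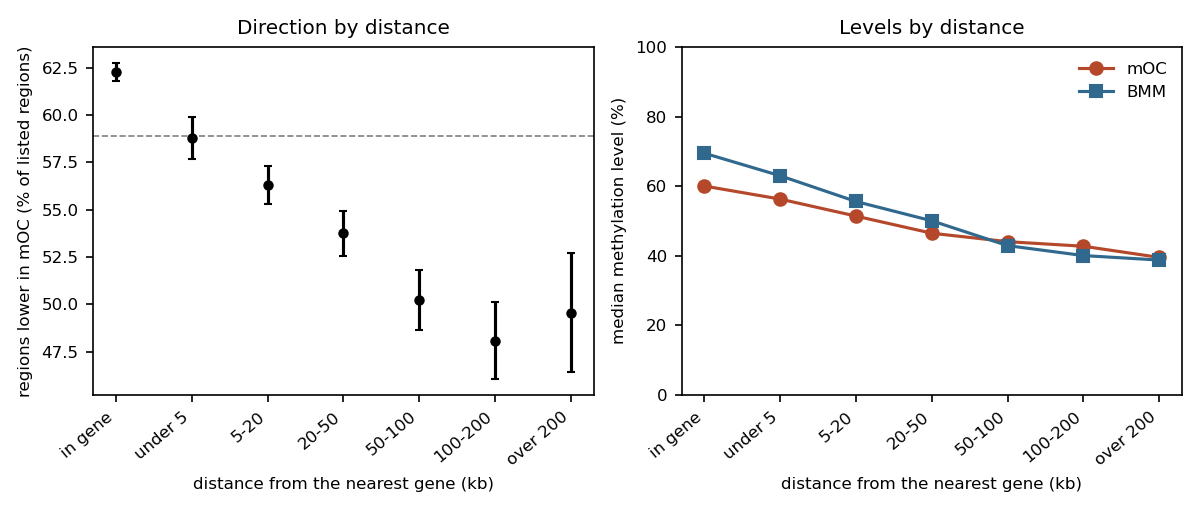
Left, share of listed regions lower in mOC (%, points with 95% exact intervals; dashed line, all regions) by distance from the nearest gene in kb; right, median methylation level (%) in mOC (circles) and BMM (squares) over the same classes. The share lower goes from 62.3% inside genes to 48.1% at 100 to 200 kb, where the curves of median level have crossed.

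Genes and the rest also differed at like levels. At averages of 60 to 80%, 67.2% of 14426 regions in genes were lower in mOC (66.5 to 68.0), against 60.2% of 9024 outside genes (59.2 to 61.2). At 80% and above the shares were 68.1% in genes (67.1 to 69.1) and 61.3% outside (59.6 to 63.1). More than 50 kb from any gene they were 53.3% of 1425 regions at 60 to 80% (50.6 to 55.9) and 45.8% of 2022 at 40 to 60% (43.6 to 48.0), so there gains were the more frequent at middle levels. Under 20% the shares were 48.0% in genes and 49.0% outside, with overlapping intervals.

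Within genes the lean to loss depended on length and, weakly, on position. In protein-coding genes of 50 to 100 kb, 68.2% of 6184 regions were lower in mOC (67.0 to 69.3). The share was 62.3% of 2496 in genes under 20 kb, 64.5% of 6351 at 100 to 200 kb, 60.1% of 6171 at 200 to 500 kb and 54.2% of 3814 in genes of 500 kb or more (52.7 to 55.8). Median levels were also lower in longer genes, at 47.7% in mOC and 49.1% in BMM in the longest class, against 63.7% in mOC and 77.6% in BMM at 50 to 100 kb. Along genes of at least 20 kb cut into 10 equal parts, the first part had 60.3% lower (58.2 to 62.3), the next 65.7% (63.7 to 67.6), and the other parts lay between 61.5 and 65.3%.

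Close to gene starts listed regions were few, with somewhat smaller shares lower in mOC. Starts were known for 32851 promoters of 27025 genes, none of them on chromosome 18, so regions near a start that is missing here count as farther away. Of 495 regions centred within 0.5 kb of a start 54.7% were lower in mOC (50.2 to 59.2), of 2613 at 0.5 to 2 kb 57.0%, and of 4959 at 2 to 5 kb 60.9% (59.6 to 62.3). Windows of 250 bases before to 50 after the start touched a listed region in 244 promoters, 0.743% of all. The 239 regions there were 133 lower and 106 higher in mOC, or 55.6% lower (49.1 to 62.1), with medians of 52.9% in mOC and 57.8% in BMM. This interval and that within 0.5 kb of a start both hold the 58.9% of all listed regions. CG-rich promoters were rare among them: 0.103% of the 8701 promoters with 20 or more CG dinucleotides held a listed region, against 1.53% of the 6654 with 3 to 5. Promoters with a listed region had a median of 4 CG dinucleotides, and all promoters 7.

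Motifs of 3 factor families known from osteoclast biology were searched on both strands of these 300-base windows, each on its own and without removing overlaps. The E-box CACGTG, which MITF and its relatives can bind, was in 3.28% of the 244 promoters with a listed region (1.43 to 6.36) and in 7.15% of all 32851. The AP-1 motif TGANTCA was in 9.43% of them (6.07 to 13.8) and in 7.81% of all. GAGGAA, the core of PU.1 sites, was in 31.6% of them (25.8 to 37.8) and in 28.3% of all. In promoters with a gain in mOC GAGGAA was in 40 of 109 (36.7%, 27.7 to 46.5), and in those with a loss in 37 of 135 (27.4%, 20.1 to 35.7). Both intervals hold the 28.3% of all promoters. TGANTCA was in 11 of the promoters with a gain and 12 of those with a loss, and CACGTG in 2 and 6. The promoters with a listed region hold fewer CG dinucleotides, which bears on CACGTG since it contains one; its part was not tested.

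Among promoters with at least 30 reads in both libraries, the losses in mOC were led by Emp2, a tetraspan membrane protein, with 9.80% in mOC (3.26 to 21.4, 51 reads) and 48.7% in BMM (32.4 to 65.2, 39 reads). The Fbxw7 promoter shown above followed at -36.8 points (-48.3 to -23.6). Dgkh stood at 58.8% in mOC and 91.2% in BMM, and Orc2, a subunit of the origin recognition complex, at 58.3% in mOC and 87.9% in BMM. The window of Kmo, the kynurenine hydroxylase, was at 47.6% in mOC and 76.7% in BMM. Cux2, a homeodomain factor, was at 22.6% in mOC and 54.3% in BMM. Promoters of the olfactory receptors Olfr934 and Olfr272 and of Snph and Spanxn4 made up the rest, with differences between -29.5 and -27.5 points.

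The gains were led by Spag16, a protein of the sperm axoneme, with 82.5% in mOC (67.2 to 92.7, 40 reads) and 40% in BMM (23.9 to 57.9, 35 reads). The promoter of the zinc finger gene Zfp988 had the most reads, with 61.9% in mOC (113 reads) and 29.6% in BMM (125 reads), a difference of 32.3 points (19.8 to 43.5). The Cldn7 promoter shown above was at 90.9% in mOC and 62.7% in BMM. Lhx8, a LIM homeodomain factor of neurons, was at 89.4% in mOC and 62.1% in BMM. Olfr130, Pifo, Smim34, Lrrtm4 and Trim69 were higher in mOC by between 28.5 and 31.2 points. Several of these regions reach into the promoter window by few bases, as few as 4 for Pifo and 18 for Emp2, while those of Fbxw7 and Cldn7 lie in it with all 200.

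Along the autosomes direction varied little. The share lower in mOC ran from 56.4% on chromosome 8 (54.7 to 58.2) to 62.6% on chromosome 19 (60.3 to 64.8), and the density of listed regions from 23.2 per Mb on chromosome 7 to 31.9 on chromosome 10. The X chromosome stood apart in both, with 6.20 regions per Mb and 50.9% of its 1058 regions lower (47.9 to 54.0), at median levels of 50.0% in mOC and 48.0% in BMM. At the same average levels its shares were 42.1% under 20% (33.6 to 51.0, 133 regions), 43.4% at 20 to 40% (37.4 to 49.6), 47.0% at 40 to 60% (41.1 to 53.0), 59.8% at 60 to 80% (53.8 to 65.6) and 70.2% above (59.9 to 79.2). On autosomes the corresponding shares were 48.7, 50.5, 56.0, 64.6 and 66.3%. The Y chromosome had 74 regions, 32 lower and 42 higher in mOC. The listed regions of the X had 5.45 reads per cytosine in mOC and 6.00 in BMM, against 5.67 in mOC and 6.50 in BMM on the autosomes. Every listed region has at least 16 reads in both libraries, so these depths do not give the coverage of a whole chromosome. The part of coverage in the density of regions on the X was not tested. The sex of the mice is not given in the sources used here.

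On the scale of 1 Mb, regions were denser and mostly more often lower in mOC where gene spans cover more of the window. Windows with any listed region numbered 2607 and held a median of 26. The 260 fullest windows held 18.97% of all regions with 64.2% lower in mOC, and the 260 emptiest 2.06% with 48.7% lower. In windows with under 20% of their bases in genes 49.4% of 7591 regions were lower (48.2 to 50.5). At 60 to 80% in genes it was 62.3% of 24651 (61.7 to 62.9), and above that 60.6% of 6466 (59.4 to 61.8). Over the 2363 windows with at least 10 regions, the share lower had a Spearman correlation of 0.389 (Pearson 0.382) with the number of regions and 0.298 (0.306) with the share of bases in genes. With the mean BMM level it was 0.709 (0.719) and with the mean mOC level 0.251 (0.207). Windows share both libraries, and a level and a direction come from the same reads, so these values only describe. Depth correlated little with the share, at -0.0468 for mOC and -0.109 for BMM (Spearman).

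The 5 windows with the most regions all lay on chromosome 3, led by chr3:103000001-104000000 with 61 lower and 23 higher in mOC, at mean levels of 65.0% in mOC and 78.1% in BMM. The most one-sided loss was at chr19:4000001-5000000, with 32 of 37 regions lower (86.5%, 71.2 to 95.5) and mean levels of 56.7% in mOC and 77.2% in BMM. It was followed by chr10:17000001-18000000 with 40 of 47 lower and by chr19:45000001-46000000 with 33 of 39 lower. The most one-sided gains were at chr2:116000001-117000000, with 22 of 32 higher and means of 56.6% in mOC and 45.5% in BMM, and at chr5:131000001-132000000, also with 22 of 32 higher and means of 51.3% in mOC and 38.1% in BMM. Among the 1024 windows with 30 regions or more, 90 held more gains than losses. These windows were picked for their counts, and the intervals do not allow for that choice.

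Neighbouring regions shared their direction slightly more often than the overall split gives, which is 51.6% of pairs. Between regions 1 to 200 bp apart the share was 56.5% of 584 pairs (52.4 to 60.6), at 2 to 5 kb 54.8% of 6398 (53.5 to 56.0), at 20 to 50 kb 53.0% of 20003 (52.3 to 53.7) and beyond 100 kb 50.7% of 5208 (49.3 to 52.0). Over all 2938 pairs up to 1 kb apart it was 50.6% (48.8 to 52.4), but this holds 298 pairs with no gap, of which 293 are opposite. Adjoining bins of 1 direction appear to have been joined, but the rule is not given. With a gap of 1 bp or more the share with the same direction was 56.1% of 2640 pairs (54.2 to 58.0). Reading the 400 and 600 bp regions as joined bins, 1462 of 1755 adjoining bin pairs count as having the same direction (83.3%). The 1457 joins in this count, 1036 of them losses in mOC, are the same by assumption. Counts of single bins inside a wide region are not given, so the 83.3% does not measure agreement. Adjoining bins can also share reads, and the part of that was not tested. The median gap between neighbours was 21200 bp.

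**Figure D3:**
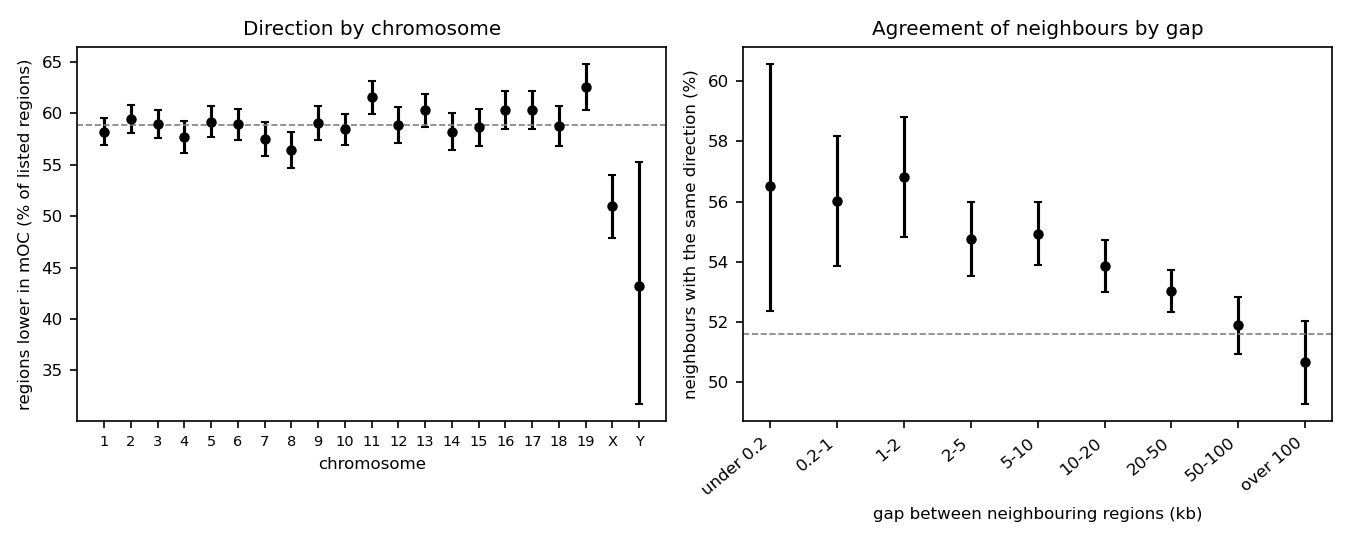
Left, share of listed regions lower in mOC (%, 95% exact intervals; dashed line, all regions) by chromosome; right, share of neighbouring region pairs with the same direction (%) by the gap between them in kb, for gaps above 0 (dashed line, 51.6% from the overall split). X and Y lie below the autosomes, and the agreement of neighbours goes from 56.5% under 0.2 kb to 50.7% beyond 100 kb.

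Runs of regions in 1 direction with gaps of at most 1 kb were short. Losses formed 937 runs of 2 regions, 43 of 3 and 3 of 4. Gains formed 445 runs of 2, 5 of 3 and 0 of 4 or more. The longest runs of loss were at chr15:79186001-79189000, at 44.1% in mOC and 71.3% in BMM, at chr4:83511403-83513602, at 45.8% in mOC and 70.4% in BMM, and at chr4:80003403-80005402, at 21.4% in mOC (700 reads) and 44.6% in BMM (397 reads). The next was a run of 3 inside Sil1, an endoplasmic reticulum exchange factor, over 1000 bp at 41.7% in mOC and 82.9% in BMM, a difference of -41.2 points (-51.5 to -29.0). Among the 5 runs of 3 gains, 1 lay inside Pecam1, the endothelial and leukocyte adhesion molecule CD31, at 65.0% in mOC and 33.6% in BMM. Another lay inside Epm2a.

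By gene, 28.3% of the 49943 annotated genes and 44.7% of the 21887 protein-coding ones held a listed region. Of the 14137 genes with a region, 5907 held only losses in mOC, 3181 only gains and 5049 both. They had a median length of 34.6 kb, against 5.96 kb over all genes, and 2250 held 5 regions or more. Of those, 141 held only losses and 11 only gains, 152 in all.

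The genes with the most regions all lower in mOC are given first, with the reads of a gene's listed regions summed. Choosing genes by a single direction also sets the order of their levels, since a loss of 20 points or more needs a BMM level of at least 20% and a gain of that size one of at most 80%. Wdfy3, a scaffold of selective autophagy, had 11 regions over 204.8 kb, which together stood at 62.1% in mOC (57.4 to 66.7, 441 reads) and 90.2% in BMM (87.1 to 92.7, 468 reads). Its single regions lay between 27.7 and 76.9% in mOC and between 68.4 and 100% in BMM. Arid5b, an AT-rich DNA-binding coactivator, had 10 at 60.4% in mOC and 86.0% in BMM. Tlk1, a kinase of chromatin assembly, had 9 at 67.1% in mOC and 93.4% in BMM, and Npepps, the puromycin-sensitive aminopeptidase, had 9 at 58.4% in mOC and 83.8% in BMM. Fbxw7 had 9 at 62.9% in mOC and 93.3% in BMM, of which the promoter region printed above is 1.

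The remaining losses of this kind were 8 regions each in Pip5k1a, a lipid kinase that makes PIP2, in Fbxo34, in the Ras exchange factor Sos2 and in Tut4, which adds uridines to RNA 3′ ends. Their levels lay between 51.1 and 63.2% in mOC and between 76.9 and 88.4% in BMM. These 9 genes stood between 51.1 and 67.1% in mOC. These are sums over the listed regions, which were preselected by their difference, and not levels of whole genes.

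Of the genes with only gains Epm2a, which encodes the glycogen phosphatase laforin, had 10 regions over 105.6 kb, together at 69.7% in mOC (65.6 to 73.5, 547 reads) and 46.6% in BMM (42.0 to 51.1, 481 reads). Vmn2r57, a pheromone receptor, had 6 at 70.1% in mOC and 38.0% in BMM. Phactr3, a regulator of protein phosphatase 1 and actin, had 5 regions at 32.1% in mOC (44 of 137 reads) and 4.61% in BMM (7 of 152 reads), the lowest BMM level among these genes. Eda, the TNF-family ligand ectodysplasin, had 5 on the X chromosome at 41.1% in mOC and 12.7% in BMM, Tmeff2 5 at 51.7% in mOC and 20.4% in BMM, and the cadherin gene Cdh4 5 at 66.1% in mOC and 38.4% in BMM. At the other end Lrrfip2 had 5 at 89.8% in mOC and 63.7% in BMM and Spink13, a protease inhibitor, 5 at 83.1% in mOC and 57.8% in BMM. Ston2, an endocytic adaptor, and Sh3rf2 had 5 each, with differences of 25.7 and 30.1 points. In mOC these genes spread from 32.1 to 89.8%, a range that holds the 51.1 to 67.1% of the genes with only losses.

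**Figure D4:**
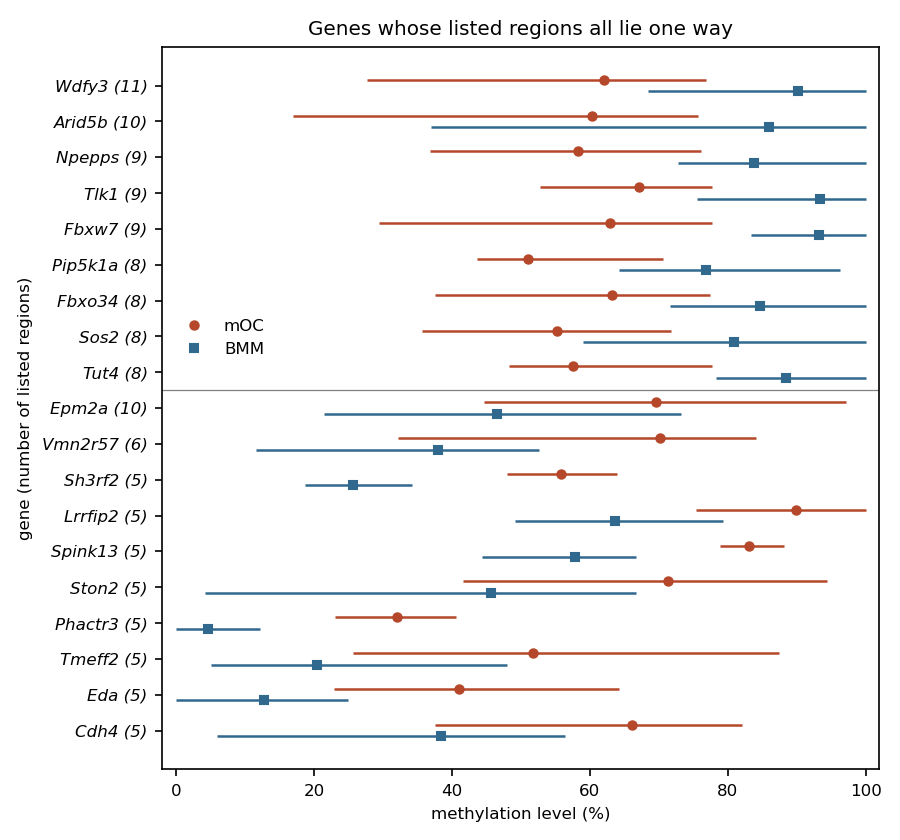
Methylation level (%) of genes whose listed regions all lie one way, in mOC (circles) and BMM (squares); symbols give all reads of the gene's listed regions together, lines the range over its regions, and the number of regions stands in brackets. The 9 genes above the line hold only losses and have BMM levels from 76.9 to 93.4%; the 10 below hold only gains and have BMM levels from 4.61 to 63.7%, an order that choosing genes by direction favours.

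The genes of at least 20 kb with the densest regions mostly held both directions. Tmco1, an endoplasmic reticulum calcium channel, had 3 losses and 4 gains in 25.3 kb, at 80.9% in mOC and 77.7% in BMM, a difference of 3.14 points (-3.76 to 9.87). Ppp1r2, an inhibitor of protein phosphatase 1, had 6 losses in 23.7 kb, at 65.1% in mOC and 89.3% in BMM. Pnisr had 5 losses and 2 gains and Gtf2e2, a subunit of the general transcription factor TFIIE, 7 losses and 2 gains. In Gtf2e2 the sum was 69.0% in mOC and 86.7% in BMM. Afg3l1, Lrrc51, Actr10 and the sterol transporter gene Abcg5 held losses and gains whose sums differed by between -6.04 and 1.76 points, with every interval reaching 0. Saal1 and Clcc1 held 4 losses and 1 gain each.

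The largest counts belonged to very long loci that held both directions. The immunoglobulin kappa locus Igk, 3171 kb long and annotated as 1 feature, held 27 losses and 35 gains and stood at 43.7% in mOC and 40.4% in BMM, a difference of 3.28 points (0.482 to 6.08). Tenm3, a teneurin of neurons, held 21 losses and 33 gains (48.0% in mOC, 42.0% in BMM; 5.95 points, 2.89 to 9.01), and Pcdh15, a protocadherin of the inner ear, 20 and 26 (47.1% in mOC, 44.4% in BMM). Pde4d, a cAMP phosphodiesterase, had 40 losses and 17 gains, at 71.2% in mOC and 81.2% in BMM, a difference of -10.02 points (-12.6 to -7.40). Anks1b and Lsamp, both neuronal, had 22 losses with 20 gains and 21 with 21.

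The regions in genes with the smallest deposited p-values are given next, a choice that favours deep and CG-rich bins. A read counts once for each cytosine it covers. With reads counted once per strand, the intervals of Smarcal1, Proca1, Synj2, Peak1, Taco1, Col19a1, Dlg4 and Nrg2 reach 0. Among losses, Zfyve9, an endosomal adaptor of TGF-β signalling, stood at 22.2% in mOC (17.0 to 28.1, 230 reads) and 63.9% in BMM (54.1 to 72.9, 108 reads) at chr4:108668203-108668402. Myo6, the myosin that moves to the minus end of actin, was at 46.3% in mOC and 93.2% in BMM, and Cp, the copper ferroxidase ceruloplasmin, at 24.4% in mOC and 72.1% in BMM. Plekha5 had -51.3 points (-62.1 to -37.6) and the lysine methyltransferase gene Smyd3 -49.1 (-59.4 to -36.6). Smarcal1, an annealing helicase, was low in both libraries, at 7.43% in mOC (269 reads) and 35.5% in BMM (502 reads). The losses in Uevld, Cdk14, Zfc3h1 and Proca1 lay between -45.4 and -23.3 points.

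Among gains, Enah, an actin regulator of the Ena/VASP family, stood at 57.2% in mOC (180 reads) and 19.9% in BMM (276 reads) at chr1:181959603-181959802, a difference of 37.3 points (28.4 to 45.5). Jarid2, a partner of Polycomb repressive complex 2, was at 64.3% in mOC and 40.5% in BMM, on 19.9 and 28.7 reads per cytosine. Synj2, a phosphoinositide phosphatase, was at 51.2% in mOC and 15.1% in BMM. Rap1gds1 was at 96.1% in mOC and 50.6% in BMM. The Cdk8 region at chr5:146261201-146261400 had 2284 reads in mOC and 2005 in BMM, or 71.4 and 62.7 reads per cytosine, against medians of 5.67 and 6.50, at 54.7% in mOC and 29.2% in BMM. Only 10 listed regions exceeded 30 reads per cytosine in either library, and where the extra reads come from was not tested. Gains in Peak1, Taco1, Col19a1, Dlg4 and Nrg2 lay between 26.6 and 39.0 points.

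Genes of osteoclast differentiation and function held more losses than gains: of 60 listed regions 44 were lower in mOC, 73.3% (60.3 to 83.9), against 62.3% over all genes and 63.3% over protein-coding genes, both of which lie inside that interval. The median difference was -25.4 points, against -22.8 over all genes. Of the 36 genes of this list 22 held a region, 61.1% against 44.7% of protein-coding genes, 11 with only losses, 2 with only gains and 9 with both; the list's median gene length was 26.1 kb, against 17.2 kb. Members described from here on are up to 8 per list by the smallest deposited p-value, and some lists share members. Nfatc1, Snx10, Dcstamp, Prdm1, Traf6, Src, Plekhm1, Tnfrsf11a, Tab1, Map3k7, Plcg1, Itpr2, Ptk2b, Cd44 and Adam12 were added after their values were seen. So were Tfam, Gpi1, Pfkfb3 and Pkm. The master regulator gene Nfatc1 had 4 regions, all lower, together at 61.3% in mOC (51.4 to 70.6, 106 reads) and 92.4% in BMM (86.7 to 96.1, 144 reads). Snx10, a sorting nexin needed for resorption, had 4, all lower, at 46.9% in mOC and 76.5% in BMM. Atp6v0d2, a proton pump subunit that also serves fusion, had 2 at 41.9% in mOC and 73.0% in BMM, and Dcstamp, the fusion receptor, 1 at 52.9% in mOC and 84.8% in BMM.

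Mitf, a transcription factor of osteoclasts and pigment cells, had 7 losses and 2 gains, at 62.9% in mOC and 81.9% in BMM, a difference of -19.04 points (-26.2 to -11.7). Prdm1, a repressor of inhibitors of the pathway, was at 43.2% in mOC and 72.3% in BMM. The single Spi1 region, in the gene of PU.1, was at 9.68% in mOC (3.63 to 19.9, 62 reads) and 46.2% in BMM (35.6 to 56.9, 91 reads), and that of Car2, the carbonic anhydrase that supplies protons, at 13.3% in mOC (60 reads) and 46.7% in BMM (75 reads). Such levels are not particular to these 2, since other genes of this list also held regions under 20% in mOC. Among all listed regions 3883 stood under 10% in mOC and 3666 at 10 to under 20%. Traf6, the adaptor below RANK, was at 51.6% in mOC and 83.7% in BMM.

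Other members went the opposite way or were mixed. Ostm1, the partner of the chloride transporter CLC-7, held 1 loss and 1 gain, at 69.4% in mOC and 83.5% in BMM. The β3 integrin gene Itgb3 had 2 losses and 3 gains, at 69.0% in mOC and 61.3% in BMM, a difference of 7.62 points (-0.173 to 15.3). Its partner Itgav had 4 losses and 1 gain, at 59.4% in mOC and 77.7% in BMM. Single gains were in Src, the kinase of the sealing zone, at 76.5% in mOC and 54.5% in BMM, and in Plekhm1, a lysosomal adaptor, at 86.2% in mOC and 60.7% in BMM. Tnfrsf11a, the gene of RANK, held 1 of each, at 86.8% in mOC and 89.7% in BMM, and Cd109 held 4 losses and 3 gains that summed to -5.05 points (-11.9 to 1.85). No region was listed in 14 genes, among them Ctsk and Mmp9, which encode matrix-degrading proteases, Acp5, the gene of the acid phosphatase TRAP, and Fos and Oscar.

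Among 45 signalling genes of the RANK pathway (NF-κB, MAP kinases, calcium) 36 held regions (80%, against 44.7% of protein-coding genes). The list's median gene length was 59.98 kb, against 17.2 kb over protein-coding genes, and the part of length was not tested. Of 147 regions 94 were lower in mOC (63.9%, 55.6 to 71.7), close to the 62.3% of all genes. Of the 36, 14 held only losses, 4 only gains and 18 both. One-way losses were in Ikbkb, the kinase IKKβ, with 57.5% in mOC and 92.5% in BMM over 2 regions, and in Btk, a kinase below ITAM receptors, with 53.6% in mOC and 93.2% in BMM over 2. Among calcium genes Stim1, the endoplasmic reticulum calcium sensor, had 8 losses and 2 gains, at 52.8% in mOC and 70.6% in BMM, and the calcium release channel gene Itpr1 9 losses and 1 gain, at 72.1% in mOC and 89.9% in BMM. Mixed members were Ppp3ca, the catalytic subunit of calcineurin, with 4 losses and 3 gains that summed to -2.15 points, and Plcg2, a phospholipase below ITAM receptors, with 4 losses and 2 gains that summed to -3.35 points. The second release channel gene Itpr2 had 7 of each, at 76.2% in mOC and 73.9% in BMM. Traf3, which restrains the alternative NF-κB pathway, had 1 loss and 2 gains, at 76.5% in mOC and 65.6% in BMM, and Map3k14, the kinase NIK that it targets, a single gain, at 96.2% in mOC and 70.6% in BMM. The other genes with only gains had 1 each: Tab1 at 81.8% in mOC and 51.9% in BMM, Map3k7, the kinase TAK1 that TAB1 binds, at 89.7% in mOC and 65.6% in BMM, and Plcg1, a phospholipase, at 93.3% in mOC and 68.4% in BMM.

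Genes of cell fusion, podosomes and the cytoskeleton had 133 of 186 regions lower in mOC, 71.5% (64.4 to 77.9), with medians of 66.7% in mOC and 86.1% in BMM. The interval lies above the 62.3% of all genes. Of 44 genes 32 held a region (72.7%, against 44.7% of protein-coding genes), and their list's median gene length was 66.1 kb, against 17.2 kb. Regions in protein-coding genes of 50 to 100 kb were 68.2% lower, a value inside the list's interval, and the part of length was not tested. Of the 32 genes, 9 held only losses, 2 only gains and 21 both. Elmo1, which activates Rac with DOCK proteins, had 15 losses and 2 gains, at 62.7% in mOC (566 reads) and 82.1% in BMM (587 reads), a difference of -19.4 points (-24.4 to -14.3). Ptk2, the focal adhesion kinase, had 13 losses and 4 gains, at 62.0% in mOC and 82.0% in BMM, and its relative Ptk2b, the podosome kinase PYK2, 4 losses, at 68.2% in mOC and 95.6% in BMM. The ubiquitin ligase gene Cblb had 5 losses and 1 gain, at 57.9% in mOC and 86.7% in BMM. The fusion-related receptors Cd44 and Cd47 had 2 losses each, Cd44 at 46.0% in mOC and 86.7% in BMM. Gains prevailed in Diaph2, a formin on the X chromosome, with 4 losses and 5 gains at 68.4% in mOC and 54.3% in BMM, and in the metalloproteinase gene Adam12, with 2 losses and 5 gains. Myo10, the myosin of filopodia, had 9 losses and 3 gains, at 72.6% in mOC and 88.3% in BMM, and Wipf1, a partner of WASP proteins, 3 losses and 1 gain. In Vcl, vinculin, 3 losses and 4 gains summed to 1.69 points (-5.36 to 8.62).

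The acid-secreting machinery showed a like share on few regions: 20 of 28 were lower in mOC (71.4%, 51.3 to 86.8). The interval holds the 62.3% of all genes. Of its 30 genes 14 held a region (46.7%, against 44.7% of protein-coding genes). The proton pump a1 subunit gene Atp6v0a1 had 3 losses at 52.7% in mOC and 85.0% in BMM, and Atp6v0a2 2 losses at 67.1% in mOC and 93.1% in BMM. Rab7, the late endosome GTPase that directs vesicles to the ruffled border, had 3 losses, at 65.2% in mOC and 91.9% in BMM. Atp6v0a4, the kidney form of that subunit, had 1 loss and 2 gains, at 73.5% in mOC and 51.9% in BMM, and Atp6v1h 1 of each. Atp6v0e had 3 losses and 1 gain, at 53.8% in mOC and 75% in BMM, and the lysosomal membrane gene Lamp2 1 loss and 2 gains, at 67.5% in mOC and 61.4% in BMM.

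Negative regulators of osteoclastogenesis were mixed: 12 of 23 regions were lower in mOC (52.2%, 30.6 to 73.2), an interval that holds the 62.3% of all genes. The list also holds Rgs12, which is known in mice to promote osteoclast formation. Without it, a choice made after its values were seen, 12 of 21 regions were lower (57.1%, 34.0 to 78.2), and of 8 genes with a region 2 held only losses, 3 only gains and 3 both. Foxo1, a stress-response factor, had 4 losses, at 64.8% in mOC and 90.3% in BMM. Eomes had 2 losses, at 52.9% in mOC and 89.6% in BMM. The counts above include Eomes, but its place among negative regulators was not tested here. Lgr4, a receptor that also binds RANKL, had 2 gains, at 57.4% in mOC and 33.0% in BMM. Single gains were in Irf8, a macrophage factor that restrains NFATc1, at 95.8% in mOC and 73.5% in BMM, and in Cyld, a deubiquitinase acting on TRAF6, at 100% in mOC (43 of 43 reads) and 73.9% in BMM (46 reads). Foxo3 and Zbtb46 held 1 loss and 1 gain each. Rbpj, the effector of Notch, had 4 losses and 3 gains that summed to -1.82 points (-9.39 to 5.67).

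Macrophage identity and innate sensing genes had 22 of 40 regions lower in mOC (55.0%, 38.5 to 70.7), an interval that holds the 62.3% of all genes, and 18 of the 33 genes held a region (54.5%, against 44.7%). Nlrp3, the inflammasome sensor, had a region at 51.5% in mOC (33 reads) and 97.7% in BMM (43 reads), and Itgam, the integrin CD11b, 2 losses at 55.0% in mOC and 82.3% in BMM. The TAM receptor gene Axl had 2 losses at 61.0% in mOC and 97.6% in BMM. Cx3cr1, the fractalkine receptor, had a gain, at 67.5% in mOC and 37.6% in BMM, a difference of 29.9 points (16.7 to 41.6). The scavenger receptor gene Cd36 had 2 losses and 5 gains, at 70.7% in mOC and 56.0% in BMM, a difference of 14.7 points (5.00 to 23.9). Adgre1, the gene of F4/80, had 3 of each, the Fc receptor gene Fcgr4 1 of each, and the TAM receptor gene Mertk 3 losses and 2 gains that summed to -11.7 points.

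Genes of the DNA methylation machinery had 24 of 34 regions lower in mOC (70.6%, 52.5 to 84.9), an interval that also holds the 62.3% of all genes. Dnmt1, the maintenance enzyme, had 2 losses at 51.3% in mOC (43.1 to 59.5, 152 reads) and 85.2% in BMM (77.1 to 91.3, 108 reads), and Uhrf2, a relative of its partner UHRF1, 3 losses at 55.1% in mOC and 82.4% in BMM. The TET oxidase gene Tet2 had 3 losses and 1 gain and Tet1 4 losses and 3 gains, which together stood at 42.8% in mOC and 53.1% in BMM. Mbd1, a reader of methylated DNA, had a loss, the remodeller gene Hells 3 losses and 2 gains, and the histone demethylase gene Kdm1a 1 of each. Genes of glycolysis and mitochondria had 35 of 53 regions lower in mOC (66.0%, 51.7 to 78.5), with the 62.3% of all genes inside the interval. Ppargc1a, the coactivator PGC-1α, had 12 losses and 7 gains, at 43.4% in mOC and 49.8% in BMM, and Ppargc1b 3 losses and 1 gain. Of the 18 genes with a region 8 held only losses, 4 only gains and 6 both. The hexokinase and phosphofructokinase genes Hk2 and Pfkp held only losses, while Hk1 and Ndufs1 held 1 of each. Single gains were in Gpi1, at 95% in mOC and 60% in BMM, and in Pfkfb3, at 100% in mOC and 70% in BMM. Pkm also had a single gain, at 90.9% in mOC and 65.5% in BMM. Other members included 7 losses and 2 gains in Nrf1, 2 gains in Tfam, the mitochondrial transcription factor, at 94.2% in mOC and 67.6% in BMM, and a loss in Hk3, the hexokinase of myeloid cells, at 12.5% in mOC (32 reads) and 56.0% in BMM (25 reads).

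Imprinted genes, at which 1 parental copy is methylated, had 30 of 58 regions lower in mOC (51.7%, 38.2 to 65.0), at medians of 57.6% in mOC and 57.9% in BMM. The interval holds the 62.3% of all genes, and 15 of the 32 genes held a region (46.9%, against 44.7%). Impact, on which 3 gains fell, was at 84.7% in mOC and 52.4% in BMM, a difference of 32.3 points (19.7 to 43.4), and Plagl1, with 1 loss and 3 gains, was at 63.1% in mOC and 46.5% in BMM. Sgce had 4 losses and 2 gains, at 55.3% in mOC and 70.3% in BMM. Kcnq1 had 6 losses and 4 gains and Snrpn 2 and 4, Snrpn standing at 34.7% in mOC and 33.7% in BMM. Airn had 4 losses and 3 gains, Igf2r 2 losses and 1 gain, and Ube3a 1 of each. Whether these regions lie in the imprint control elements was not placed here.

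Genes that mark other marrow cells give the reading for lineages the cultures should not contain. T cell markers had 31 of 50 regions lower in mOC (62.0%, 47.2 to 75.3); the 62.3% of all genes lies inside this interval and inside those of the B cell, neutrophil, stromal and dendritic lists below. Lck, the T cell receptor kinase, had 3 losses at 32.7% in mOC and 63.8% in BMM, and Tcf7, a T cell factor, 3 losses at 30.9% in mOC and 64.7% in BMM. Lef1 had 5 of each, Skap1 10 losses and 6 gains, Cd247 4 losses and 2 gains, Themis 2 losses and 3 gains, Gata3 only losses and Cd28 only gains. B cell markers had 16 of 35 regions lower (45.7%, 28.8 to 63.4) with 4 losses and 9 gains in Bank1, at 49.3% in mOC and 41.2% in BMM. Pax5 had 5 losses and 3 gains and Ebf1 5 losses and 6 gains, both B cell master factors, while Pou2af1 and Rag1 held a loss each and Blk a gain. Neutrophil markers had 6 regions, 3 each way (11.8 to 88.2% lower), of which 2 gains were in Ltf, lactoferrin, at 77.4% in mOC (93 reads) and 44.3% in BMM (122 reads), while Gfi1 and Ngp held a loss each and Csf3r 1 of each. Stromal and osteoblast markers had 17 of 25 regions lower (46.5 to 85.1%). Runx2, the osteoblast factor, had 10 losses and 3 gains, at 65.6% in mOC and 79.3% in BMM, while Col2a1, Pdgfrb and Tnfsf11 had a loss each, Ibsp and Alpl, genes of bone matrix and mineral, a gain each, and Acan and Lepr 1 of each. Dendritic cell markers had 10 of 17 lower (32.9 to 81.6%), with 6 losses and 4 gains in Tcf4. Mast cell and basophil markers had 1 of 2 lower, a loss in Hdc and a gain in Kit. Erythroid and megakaryocyte markers had no region in 14 genes, where 44.7% of protein-coding genes held one. Their median length was 7.54 kb, against 17.2 kb over protein-coding genes. Methylation in marker genes does not count cells, and the makeup of the cultures was not tested.

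Families defined by gene symbol spread on both sides of the 62.3% of all genes. Forkhead factors had 70.6% of 68 regions lower in mOC (58.3 to 81.0), DOCK exchange factors 67.7% of 93 (57.3 to 77.1), Rab GTPases 66.7% of 132 (57.9 to 74.6) and zinc finger genes of the Zfp series 64.5% of 454 (59.9 to 68.9). Each of these intervals holds the 62.3% of all genes. The families given next had fewer losses, with intervals below that value. The share was 49.0% of 257 regions in voltage-gated potassium channels (42.8 to 55.3), 51.0% in protocadherins (40.9 to 61.0) and 51.5% of 130 in cadherins (42.6 to 60.4). In vomeronasal receptors it was 41.7% of 60 (29.1 to 55.1), with medians of 44.5% in mOC and 35.6% in BMM. Median BMM levels were 51.5, 51.5, 44.2 and 35.6% in potassium channels, protocadherins, cadherins and vomeronasal receptors, against 83.0% in DOCK genes and 81.4% in forkhead genes, so levels moved with these shares, and their part in them was not tested. Of 1110 olfactory receptor genes 31 held a region (2.79%, against 28.3% of all genes). Their median length was 0.95 kb, against 5.96 kb over all genes. They held 1.55 regions per 100 kb, against 2.87 over all genes, and the part of length was not tested.

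**Figure D5:**
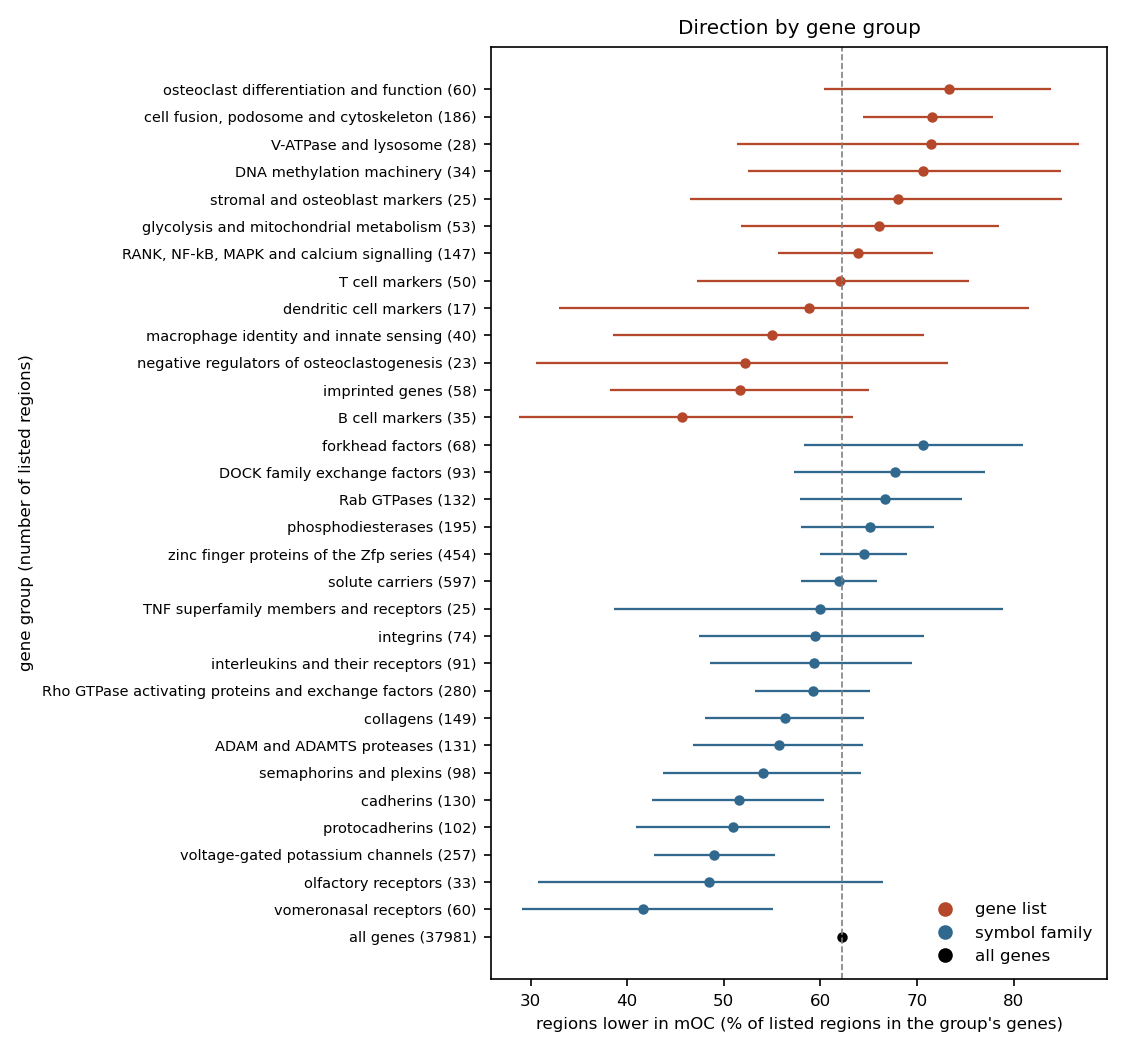
Share of listed regions lower in mOC (%, points with 95% exact intervals) by gene list and by symbol family, for groups with at least 15 regions; the number of regions stands in brackets and the dashed line marks all genes at 62.3%. The osteoclast list lies at 73.3% and the vomeronasal receptors at 41.7%.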

How the data were processed

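Regions were used as the authors deposited them: per the file headers, a region comes with its coordinates, its count of cytosines, a p-value and, for either library, counts of methylated reads and of total reads summed over the CG cytosines. The deposited p-value was used only to rank regions and for an alternative threshold. Library headings give hours of RANKL and were matched to BMM (0 h) and mOC (72 h). GRCm38, HISAT2, StringTie and FastQC appear per the submitters' processing notes. Which bisulfite aligner and region caller the authors ran is not given in the sources used here. In the deposited values no region had under 20 points of difference, under 4 cytosines or under 16 reads in either library, so differences were preselected, and all 69337 regions exceed the minimum of 10 reads. Median depth per region was 32 reads in mOC and 36 in BMM. A read over several cytosines counts several times, so intervals are too narrow.

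Levels have exact Clopper-Pearson and differences Newcombe 95% intervals, computed in Python 3.11.15 with pandas 2.3.3, NumPy 2.4.6 and SciPy 1.17.1, and figures were drawn with matplotlib 3.10.9. The functions were tested on simulated data. Genes are spans of a RefSeq table (GRCm38.p6, 49943 genes), assigned on an overlap of 1 bp, with exon and intron not placed. Promoter sequences and starts are from RefSeq, and promoters of chromosome 18 were not analysed here. Of 398 list entries 397 matched by symbol and the other by a synonym.

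Named genes and regions, leaving out predicted genes, are per direction the 10 with the most regions all one way, the 10 in-gene regions of smallest deposited p-value, the 5 longest runs and the 10 promoter regions of greatest difference with 30 reads or more, the 10 densest genes, and up to 8 members per list. The 6 genes with the most regions, and the list members named as such, were added after their values were seen. Results for 2 genes these rules select are not reported here. The members and lists were chosen with earlier results of these data known. With 1 library per stage, conditions were not tested; Fisher's exact test on each region's reads was computed, but it compares the 2 libraries, and nothing in the text rests on it. Alternatives changed the p-value, difference and depth thresholds, the gap, the gene span and the promoter window.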

Additional observations from a re-analysis of the deposited data

How the results depend on the processing

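The share of regions lower in mOC, 58.9%, was 67.2% where the deposited p-value was 0.01 or less and 59.9% with at least 30 reads in both libraries. In alternatives chosen after seeing the data it was 62.4% over regions whose interval excludes 0 with reads counted once per strand, and 56.4% without windows of 1 Mb that are 60% or more in genes. The mean difference weighted by reads, -5.29 points, was -10.8 at that p-value, -7.11 at 30 points or more, -5.50 with 30 reads and -5.17 unweighted. Agreement of neighbours, 50.6%, was 63.9% at that p-value, 54.5% up to 10 kb and 56.1% with a gap above 0. Over adjoining bins, chosen after seeing the data, it was 83.3%, with joins inside wide regions counted as the same by assumption. One-way genes with 5 regions or more, 152, numbered 9, 26 and 55 at that p-value, at 30 points and at 30 reads, which leave fewer regions. Regions in genes, 62.3% lower, were 71.2%, 63.4% with 30 reads and 61.7% with spans widened by 5 kb. The osteoclast list, 73.3%, was 87.0% at 30 points, and the X chromosome, 50.9%, was 63.4% at that p-value and 47.3% outside genes. On the X the lean thus went from losses to gains outside genes. The intervals, 47.9 to 54.0 and 43.5 to 51.2, both hold an even split. Other causes of these shifts were not tested. The other 24 values moved by less than their counting error or, for counts, by less than 1.5 times. At the stricter p-value promoters and CG-dense regions were 54.5 and 59.5% lower, against 55.6 and 60%. No paired analysis was possible because each stage has 1 library. Depth of 5.67 reads per cytosine in mOC and 6.50 in BMM limits single regions, and 10319 of them (14.9%) have an interval that excludes 0 with reads counted once per strand.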

Other observations

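Listed regions overlapped 5 of 1005 annotated miRNA hairpins, each on few reads. A region at chr14:115044001-115044200 covers Mir19a and Mir20a, members of the cluster of miR-17 to miR-92, and stood at 56.2% in mOC (29.9 to 80.2, 16 reads) and 90% in BMM (68.3 to 98.8, 20 reads). The region at Mir7214 (chr17:27317001-27317200) had the most reads, at 68% in mOC (50 reads) and 28% in BMM (25 reads), a difference of 40 points (16.0 to 57.7). Mir7237 was lower in mOC, at 37.5% in mOC and 82.4% in BMM, and Mir6402 higher, at 77.3% in mOC and 45.8% in BMM. The mature sequences at the first 2 regions, from RefSeq and 5′ to 3′, have different seeds, shown in capitals (bases 2 to 8). Expression of these miRNAs was not measured here.
mmu-miR-19a-3p: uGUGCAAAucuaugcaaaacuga
mmu-miR-20a-5p: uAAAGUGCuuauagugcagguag
mmu-miR-7214-3p: cUCAGUCCugaccccuugagcgca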
